A study of Homo sapiens with 5 samples.

Results

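RNA recovered with GFP-(GR)50 was compared with the RNA recovered in the same way from untransfected cells, in experiment 2 of a CLIP-Seq study of HEK-293, a line derived from human embryonic kidney. All regions in the deposited lists of these 2 libraries were taken, 805 for GFP-(GR)50 replicate 2 and 1339 for untransfected cells, of 3147 regions in the 5 libraries of the study. GFP-(GR)50 is GFP fused to glycine-arginine repeats, delivered with lipofectamine 3000. Untransfected cells received no construct and hold no GFP, so this control differs from the other in transfection, in GFP and in the repeat protein at once. Both cultures were irradiated with 100 mJ/cm2 at 254 nm, RNase I was added to the lysates at 0.02 units/ml, and GFP-Trap beads were applied for 1.5 h. GFP-(GP)10, cited below, is of experiment 2 and had 0.02 units/ml too. GFP and GFP-(GR)50 replicate 1, also cited below, are of experiment 1 and had 0.04 units/ml. Reads and region ends in these lists were therefore obtained at another RNase amount. RNA was taken from the membrane at the size of the fusion, and from the same size range of the control, and was sequenced as single reads of 110 nt. There is 1 library a side. No difference below has a replicate check or a test, and the 95% intervals are exact (Clopper-Pearson) and cover counting error alone.

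Poly-GR is among the dipeptide-repeat proteins made from the expanded C9ORF72 repeat in amyotrophic lateral sclerosis and frontotemporal dementia. It is rich in arginine and is known to gather in the nucleolus, where ribosomal RNA (rRNA) is made, cut and modified with the help of small nucleolar RNAs. RNA transcribed by RNA polymerase III, such as tRNA, 7SK, RNase P and RNase MRP RNA, is short, structured and abundant.

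Each list gives regions with a strand, a gene name, an RNA type, repeat annotation on either strand and 2 read columns. Unique reads map to 1 place. Scaled reads, called reads below, add reads that map to several places, with a scaling made by the authors. The smallest value listed is 5 reads, so a gene without a region had no stretch that reached the list, which is not an absence of reads. The list of GFP-(GR)50 held 134222 reads, 6.88% of them unique, and that of untransfected cells 22519 reads, 38.2% of them unique. Most of the GFP-(GR)50 reads lay in rRNA. Outside rRNA the lists held 682 regions with 6995 reads in GFP-(GR)50 and 1265 regions with 10203 reads in untransfected cells, and shares of reads below are shares of these. Neither list gives a value for GFP, so the labels were not checked on the transgene. Coordinates of regions are on hg38 as the files give them.

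Some sequences on which the comparison turns follow, from RefSeq tables of build GRCh38.p14. The first is the 5′ end of the U1 copy RNU1-28P (chr14:34556359-34556389, minus strand). Capitals mark the 27 bases listed in GFP-(GR)50 and not in untransfected cells.
RNU1-28P: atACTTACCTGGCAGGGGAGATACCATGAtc
The next is the U7 gene RNU7-1 (chr12:6943816-6943878, plus strand), whose RNA guides the cutting of histone mRNA ends. Capitals mark the 52 bases listed in GFP-(GR)50.
RNU7-1: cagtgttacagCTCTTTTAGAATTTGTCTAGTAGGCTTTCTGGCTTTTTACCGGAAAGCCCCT
MIR10396B (chr21:8436324-8436374, plus strand) is a hairpin in the 5′ external transcribed spacer of the 45S rRNA gene RNA45SN1. It is shown because all 51 of its bases, in capitals, were inside a region of GFP-(GR)50 and none was inside one of untransfected cells.
MIR10396B: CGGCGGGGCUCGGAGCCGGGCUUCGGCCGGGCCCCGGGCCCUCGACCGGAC
MIR12136 (chr1:632615-632685, minus strand) shares its place with the region that the files name tRNA-Ser-TCA(m), and capitals mark the 69 bases listed in GFP-(GR)50.
MIR12136: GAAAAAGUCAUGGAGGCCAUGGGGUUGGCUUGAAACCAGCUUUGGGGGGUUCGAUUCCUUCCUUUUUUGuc
The last is a stretch of 189 bases of the widest region of the long noncoding RNA MIR663AHG (chr20:26209295-26209483, minus strand), which was listed in GFP-(GR)50 with 45.9 reads and had no region in untransfected cells.
MIR663AHG: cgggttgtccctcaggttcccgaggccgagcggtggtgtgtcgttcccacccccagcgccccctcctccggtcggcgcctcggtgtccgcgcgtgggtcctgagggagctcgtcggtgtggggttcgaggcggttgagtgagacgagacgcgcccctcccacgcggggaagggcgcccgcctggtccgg

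The 45S precursor is cut into 18S, 5.8S and 28S rRNA, and its external and internal transcribed spacers are discarded. Along its named copies, both lists held the mature parts almost whole and differed in the spacers. On RNA45SN1 the regions of GFP-(GR)50 covered all 7092 mature bases and all 6259 spacer bases. Untransfected cells covered all 7092 mature bases and 3696 spacer bases, 59.1%. All 5 gaps of the untransfected list on this gene lay in spacers. The longest, of 1377 bases from 8435403 to 8436779, lay in the 5′ external spacer and ended shortly before 18S, and it holds the MIR10396B hairpin printed above. The 3′ external spacer had 15 of 361 bases listed in untransfected cells and all 361 in GFP-(GR)50. The other copies on chromosome 21 had nearly the same pattern. Spacers were covered to 99.0% in GFP-(GR)50 and 57.7% in untransfected cells on RNA45SN2, and to 96.7% and 57.8%, in the same order, on RNA45SN3. On RNA45SN3 both lists also had 1 short gap inside 28S, of 51 bases in GFP-(GR)50 and 102 bases in untransfected cells. The copies share reads and are not separate observations. The regions named for 45S genes held 66127 reads in GFP-(GR)50 and 6187 in untransfected cells, and a stretch with fewer than 5 reads is not listed; the part of depth in the spacer gaps was not tested.

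**Figure D1:**
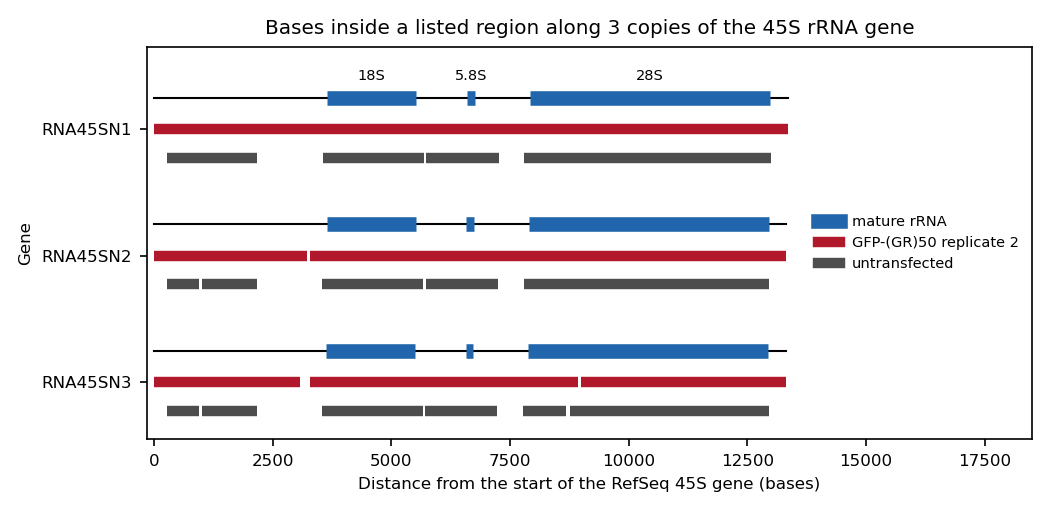
Position along 3 copies of the 45S rRNA gene, in bases from the RefSeq start. Blue blocks are mature rRNA, red bars are stretches inside a region of GFP-(GR)50 replicate 2, and grey bars are stretches inside a region of untransfected cells. The grey bars break in the spacers, with 59.1% of the spacer bases of RNA45SN1 listed, while the red bar of that gene has no break.

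Away from the 45S genes, rRNA-like copies scattered over the genome were listed more often and more deeply in GFP-(GR)50. Copies of 28S sequence (large subunit) counted 59 regions with 4597 reads in GFP-(GR)50 and 11 regions with 144 reads in untransfected cells. Copies of 18S sequence (small subunit) counted 40 regions with 1399 reads in GFP-(GR)50 and 15 regions with 327 reads in untransfected cells. Only regions under 1000 bp were counted. This left out a GFP-(GR)50 region of 2149 bp on chromosome 21 (from 8986603 to 8988752) with 786 reads, 27 of them unique. The untransfected region inside it, of 673 bp with 48.9 reads, was counted, so the 18S totals are not of like sets. Unique reads showed the same order, at 1599 and 39 for 28S copies and 541 and 90 for 18S copies, GFP-(GR)50 given first. 5S rRNA, which is made outside the nucleolus, did not follow them. It had 3 regions with 34.5 reads in GFP-(GR)50 and 5 regions with 45.9 reads in untransfected cells.

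An unannotated stretch in front of an unnamed rRNA copy on chromosome 21 carried the most reads of any region counted outside rRNA. The stretch holds simple repeats and low-complexity sequence but no rRNA annotation, and is called unannotated in that sense. In GFP-(GR)50 it was 1 region of 2401 bp from 8250195 to 8252596 with 520.6 reads, 7.44% of the reads outside rRNA. In untransfected cells 2 regions lay inside it, with 8.04 and 11.4 reads. All of these reads map to several places. The shorter of the untransfected regions, at 678 bp, has the same width as the first untransfected region of the 5′ external spacer of RNA45SN2. Shares of reads outside rRNA are given with this stretch included.

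7SK RNA, the nuclear RNA that holds back the elongation factor P-TEFb, was the structured RNA with the largest ratio among names in both lists. RN7SK had 163 reads in GFP-(GR)50, of which 58 were unique, and 15.3 in untransfected cells, of which 7 were unique. Its share of reads outside rRNA was 15.6 times as high (interval 9.33 to 29.0). The gene counts 332 bases in RefSeq. The region of GFP-(GR)50 began 2 bases before its 5′ end and spanned 335 bp, while that of untransfected cells left out the first 50 bases and spanned 279 bp. In GFP-(GP)10 the region reached the 5′ end as well, with 10.9 reads over 320 bp, of 1980 reads outside rRNA. GFP left out 1 base, with 28.4 reads, and GFP-(GR)50 replicate 1 none, with 36.4. The fuller 5′ end is thus not particular to GFP-(GR)50. Copies of 7SK elsewhere were listed in GFP-(GR)50 alone. They were 25 regions of 38 to 239 bp with 5 to 58.6 reads, 479 reads in all, of which 96 were unique. RN7SKP203 led them with 58.6 reads, followed by RN7SKP255 with 49.5, RN7SKP176 with 44.96 and RN7SKP230 with 36.8. Few of their reads are unique, 5, 10, 9 and 2 in that order, so the source of most reads at these 4 copies, among RN7SK and its copies, cannot be told apart. Of the 26 7SK regions, 10 overlapped a region of GFP-(GR)50 replicate 1 from the other experiment, 1 overlapped GFP-(GP)10 and 4 overlapped GFP.

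U3 snoRNA, which base-pairs with the 5′ external spacer and is needed for its cutting, was listed at 5 genes in both libraries. SNORD3A had 29.8 reads in GFP-(GR)50 and 13.6 in untransfected cells. SNORD3B-1 had 28.3 and 12.5, SNORD3B-2 had 27.8 and 11.8, SNORD3C had 26.6 and 10.4, and SNORD3D had 22.4 and 9.88, each with GFP-(GR)50 given first. No read at these genes was unique in either library, so the 5 genes make 1 observation. In the other experiment GFP-(GR)50 replicate 1 listed SNORD3A alone of the 5, with 5.34 reads, and GFP listed all 5, with 12.1 to 18.7. GFP-(GP)10, of experiment 2, listed SNORD3A with 8.81 reads, SNORD3B-1 and SNORD3B-2 with 6.31 each and SNORD3D with 5.15. It held 1980 reads outside rRNA in all, against 6995 in GFP-(GR)50, so U3 is not particular to GFP-(GR)50. The share of reads outside rRNA at SNORD3A was 3.19 times as high in GFP-(GR)50 as in untransfected cells (interval 1.61 to 6.38). The listed stretch was the full 217 bases at 4 of the genes in both lists. At SNORD3D it was full in GFP-(GR)50 and 126 bases in untransfected cells. The other members of the list of snoRNAs and scaRNAs, many of which guide the modification of rRNA and snRNA, were 9 names in GFP-(GR)50 and none in untransfected cells. They had 6 to 11 reads each. GFP listed SNORD118 with 10.5 reads, SCARNA2 with 6, SNORD15A with 5.50 and SNORD35B with 5, and none of the others. Over all names outside rRNA, 452 were in GFP-(GR)50 and 702 in untransfected cells, so the snoRNA and scaRNA list made up 3.10% of names in GFP-(GR)50 (14 names) and 0.712% in untransfected cells (5 names).

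Other RNAs of nucleolar or polymerase III origin were listed in GFP-(GR)50 and not in untransfected cells. RMRP, the RNA of RNase MRP, which cuts the rRNA precursor, had 31.5 reads over 268 of its 270 bases, 31 of them unique. RPPH1, the RNA of RNase P, which trims tRNA precursors, had 25 reads in 2 regions, all unique. VTRNA1-2, a vault RNA, had 5 reads. These numbers are small, and a control depth that leaves such genes under 5 reads cannot be told apart from their absence. RMRP was also listed in GFP-(GR)50 replicate 1 with 8 reads and in GFP with 17. VTRNA1-2 was listed in GFP with 14 reads. RPPH1 was listed in GFP-(GR)50 replicate 2 and in none of the other 4 libraries.

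**Figure D2:**
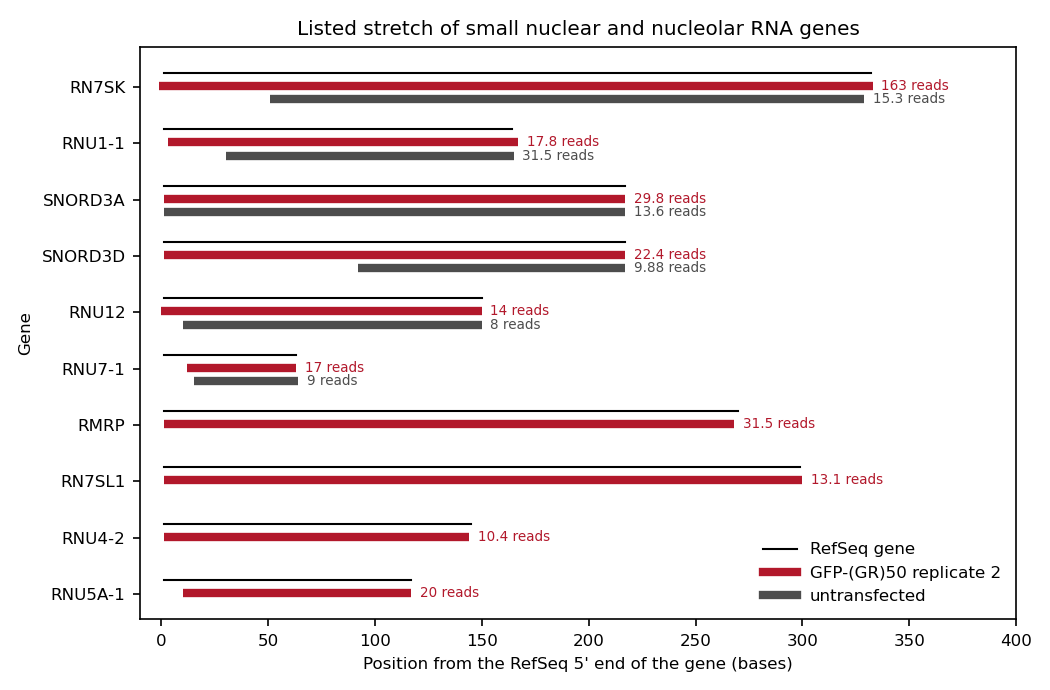
Listed stretch of 10 genes of small nuclear and nucleolar RNAs, with the 7SL RNA gene RN7SL1 among them, in bases from the RefSeq 5′ end. Black lines are the genes, red bars are regions of GFP-(GR)50 replicate 2 and grey bars are regions of untransfected cells, with scaled reads beside them. The red bars of RN7SK, RNU1-1, SNORD3D, RNU12 and, by few bases, RNU7-1 begin nearer to the 5′ end than the grey bars. A red bar alone is drawn for 4 genes.

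U1, the snRNA that recognises the 5′ splice site, was listed in both libraries at the same 8 copies with a RefSeq position, with a different start. At RNU1-1 the region of GFP-(GR)50 had 17.8 reads, began 2 bases from the 5′ end and was 165 bp wide. The region of untransfected cells had 31.5 reads, began 29 bases from the 5′ end and was 136 bp wide. The start was the same, 2 bases in GFP-(GR)50 and 29 in untransfected cells, at each of the 8, RNU1-28P among them. The bases between these starts are those in capitals above, and they hold the stretch that pairs with the 5′ splice site. Reads at these copies map to several places in both lists, except for 17 unique reads in GFP-(GR)50 and 2 in untransfected cells at RNVU1-7, so the copies make about 1 observation. At these copies untransfected cells had more reads than GFP-(GR)50, and their regions still lacked the 5′ end. In the other lists the region at RNU1-1 left out the first 22 bases in GFP-(GP)10 and none in GFP or in GFP-(GR)50 replicate 1. In GFP-(GR)50 replicate 1 the other copies began up to 3 bases from the 5′ end. RNVU1-19, a further U1 name in both lists and not among the 8, did not follow this pattern. It had 13.1 reads in GFP-(GR)50, 12 of them unique, and 8.21 in untransfected cells, 7 of them unique. Its region of untransfected cells, of 94 bp, began 2 bases nearer to the 5′ side than that of GFP-(GR)50, of 92 bp. The start of U1 was chosen for description after its values were seen.

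U2, the snRNA that binds the branch point, also differed in extent. At RNU2-1, of 188 bases, GFP-(GR)50 had 7.41 reads over 243 bp, from 2 bases before the 5′ end to 53 bases past the 3′ end. Untransfected cells had 9.87 reads over 156 bp, and that region left out the first 2 and the last 30 bases. GFP ran 10 bases past the 3′ end with 11.3 reads. The 12 further regions named U2 in each list had nearly the same values, 88.3 reads in all in GFP-(GR)50 and 118 in untransfected cells, with no unique read in either. Relative to the reads outside rRNA, the intervals at RNU1-1 and RNU2-1 included 1, and that of the name U1 did not. Regions that the files name U1 were 3 with 52.1 reads in GFP-(GR)50 and 4 with 119 reads in untransfected cells, a ratio of shares of 0.639 (interval 0.451 to 0.890). These regions had 0 and 1 unique reads, in the same order. Their reads are shared between copies, and the interval counts them as separate, so it is too narrow. The 3 overlapping pairs named U1 had ratios of 0.823, 0.800 and 0.789, each with an interval that included 1. The ratio was 0.824 at RNU1-1 (interval 0.434 to 1.51) and 1.095 at RNU2-1 (interval 0.330 to 2.97).

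Some less abundant snRNAs, named here after their values were seen, have mostly unique reads. RNU7-1 had 17 reads in GFP-(GR)50 and 9 in untransfected cells, and RNU12, of the minor spliceosome, had 14 and 8, GFP-(GR)50 given first. The ratios of shares were 2.76 (interval 1.16 to 7.02) and 2.55 (interval 1.00 to 7.02). U5 snRNA, which holds the exons during splicing, was listed at RNU5A-1 with 20 reads and at RNU5B-1 with 27 reads in GFP-(GR)50, and at neither gene in untransfected cells. RNU4-2 was likewise listed in GFP-(GR)50 alone, with 10.4 reads. All of RNU5A-1, RNU5B-1 and RNU4-2 were listed in GFP of the other experiment too, with 19.6, 23.7 and 20.1 reads. RNU5B-1 was listed in GFP-(GR)50 replicate 1 as well, with 13. Conversely, the U1 copies RNU1-136P and RNVU1-14 were listed in untransfected cells and not in GFP-(GR)50. They had 25.6 reads over 42 bp and 22.1 reads over 33 bp, in that order. Only 3 and 1 of these reads were unique, so most map to several places. GFP listed both copies too, with 7.97 and 6.71 reads. Over the whole list of spliceosomal snRNAs, 22 names had a region in GFP-(GR)50, 25 had one in untransfected cells and 16 had one in both. These are 4.87% of all names in GFP-(GR)50 and 3.56% in untransfected cells. Of all names, 22.8% in GFP-(GR)50 and 14.7% in untransfected cells were in both lists.

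tRNA was listed under 15 of the 452 names in GFP-(GR)50 and 4 of the 702 in untransfected cells, and all 4 were among the 15. By regions it made up 4.84% of the list of GFP-(GR)50 and 0.523% of that of untransfected cells. By reads the leading names in GFP-(GR)50 were tRNA-Asp-GAY with 86.8 reads in 10 regions, tRNA-Lys-AAA with 70.3 in 4 and tRNA-Glu-GAG with 60.5 in 7. tRNA-Arg-CGA with 50.0 reads and tRNA-Ser-TCA(m) with 49.0 followed, in 1 region each. Untransfected cells had 16.3 reads at tRNA-Lys-AAA and 8 at tRNA-Arg-CGA and no region for the other 3. The share of reads outside rRNA was 9.12 times as high at tRNA-Arg-CGA (interval 4.29 to 22.3), where all 50 reads of GFP-(GR)50 and 7 of 8 of untransfected cells are unique. It was 6.29 times as high at tRNA-Lys-AAA (interval 3.67 to 11.8). tRNA-Ser-TCA(m) had no unique read, so the place its reads came from, in the nuclear or the mitochondrial genome, cannot be told. Its region is the MIR12136 sequence above. GFP-(GP)10, the other transfected library of experiment 2, listed 131 reads at tRNA-Asp-GAY, 88.0 at tRNA-Lys-AAA and 158 at tRNA-Glu-GAG, more than GFP-(GR)50 at each. GFP, of the other experiment, listed 852, 814 and 1304 reads at these names. tRNA at these names thus had more reads in both transfected libraries of experiment 2 than in the untransfected one, and the most in GFP without a repeat. The tRNA regions of GFP-(GR)50 had a median width of 68 bp, against 47 bp in untransfected cells.

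Exons of protein-coding genes held 96 of the 805 regions of GFP-(GR)50, 11.9% (interval 9.77 to 14.4), and 44 of the 1339 of untransfected cells, 3.29% (interval 2.40 to 4.39). The exonic regions were shallow in both. Of those in GFP-(GR)50, 66 had at most 6 reads and the highest had 16.1; of those in untransfected cells, 26 had at most 6 reads and the highest had 22.3. Among regions with at least 10 reads the difference of 8.64 percentage points fell to 2.75 (interval -0.441 to 6.35). The regions were wider in GFP-(GR)50, with a median of 68.5 bp, against 47 bp. They lay opposite a SINE, a short interspersed repeat such as Alu, in 9 of 96 in GFP-(GR)50 and 14 of 44 in untransfected cells. Of the exonic regions, 2 of each list overlapped a region of the other, 2.08% in GFP-(GR)50 and 4.55% in untransfected cells, against 24.0% and 13.3% of all regions outside rRNA, in the same order. They also differed in place: 26 of 96 in GFP-(GR)50 and 3 of 44 in untransfected cells lay on chromosome 17 or 19, a split looked at after the values were seen. All regions outside rRNA differed in the same direction. Chromosome 17 held 8.36% in GFP-(GR)50 and 4.58% in untransfected cells, and chromosome 19 held 7.77% and 4.032%, in the same order.

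Exonic regions carried 89 names in GFP-(GR)50 and 47 in untransfected cells, and some of them belong to the translation machinery. Cytosolic ribosomal proteins had 8 names in 12 regions with 80.9 reads in GFP-(GR)50 and no name in untransfected cells, which is 1.77% of the 452 names of GFP-(GR)50 and 0% of the 702 of untransfected cells. Of the 8 names, 7 were exonic. RPL13 had 16.5 reads, RPLP2 13.8, RPL8 12.6, RPS3 10.8 and RACK1, which sits on the small subunit, 10.2. EEF2, the factor that moves the ribosome along mRNA, had 47.9 reads in 6 exonic regions of 90 to 270 bp along the gene, with 5.75 to 11 reads each. EEF2 was the protein-coding gene with the most regions in GFP-(GR)50, and untransfected cells had none on it. GFP listed it with 5 reads. EEF1G, a subunit of the factor that delivers tRNA, had 15.2 reads in 2 exonic regions. Over the list of translation factors 4 names stood in each library with no name shared, and of all names 22.8% in GFP-(GR)50 and 14.7% in untransfected cells were shared. Those of untransfected cells were EIF4G3 with 8.50 reads, EIF1AD with 7, EIF4H with 6 and EIF1AX with 5.53, of which EIF1AD was exonic. None of the ribosomal protein names was listed in the other 3 libraries, GFP-(GR)50 replicate 1 included.

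Histone genes, whose mRNAs end in a stem-loop cut with U7, had 4 names in GFP-(GR)50 and none in untransfected cells. These are 0.885% of all names in GFP-(GR)50 and 0% in untransfected cells. HIST2H4A and HIST2H4B had 8 reads each over 343 bp with no unique read, and are near-identical copies. HIST1H3H had 6 reads and HIST1H3B 5.50, and HIST1H3B was listed in GFP with 8.50. Among nucleolar and ribosome biogenesis factors 5 names stood in GFP-(GR)50 and 1 in untransfected cells, or 1.11% and 0.142% of all names. WDR43, BMS1, POLR1B, GNL3 and NOP56 had 5 to 6.04 reads in GFP-(GR)50, and NOP58 had 6 in untransfected cells. The regions at POLR1B and NOP56 were exonic, and those at WDR43, BMS1, GNL3 and NOP58 lay in introns. ACTG1, a cytoplasmic actin, was the only cytoskeleton name, with 12 reads in GFP-(GR)50, and GFP-(GP)10 listed it with 5. At such numbers a name sits near the minimum of the list, and whether it appears may rest on 1 or 2 reads.

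The remaining lists had few names in either library, of 452 names in GFP-(GR)50 and 702 in untransfected cells. Heat shock and chaperone genes had no name in GFP-(GR)50 and 3 in untransfected cells, DNAJC5 with 8 reads, CCT4 with 5.50 and DNAJB14 with 5, or 0% of names in GFP-(GR)50 and 0.427% in untransfected cells. Stress granule proteins had 1 name in GFP-(GR)50, ATXN2 with 16.5 reads, and 4 in untransfected cells, among them ATXN2 with 17.1 and DDX3X and UBAP2L with 5 each. These are 0.221% of names in GFP-(GR)50 and 0.570% in untransfected cells. Among hnRNP and SR splicing factors HNRNPU was listed in GFP-(GR)50 with 9 reads, and RBM39 with 16.8, HNRNPA2B1 with 8 and HNRNPH1 with 7.33 in untransfected cells. Among ALS and FTD genes MATR3 had an exonic region in both lists, with 11 reads in GFP-(GR)50 and 22.3 in untransfected cells, and OPTN was listed in untransfected cells alone with 11. No mitochondrially encoded gene was named in either list. This was a search by gene name, and it does not show that mitochondrial RNA was absent. MTRNR2L8, on chromosome 11, had 14.3 reads in GFP-(GR)50, of which 2 were unique, and 11.8 in GFP-(GR)50 replicate 1. The place that reads mapping to several places came from cannot be told. Such reads of GFP-(GR)50 include 49 at tRNA-Ser-TCA(m), 13.25 at tRNA-Gln-CAA and 27.2 at AL669831.3, all on chromosome 1. None of these reads is unique, and a mitochondrial source was not tested.

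**Figure D3:**
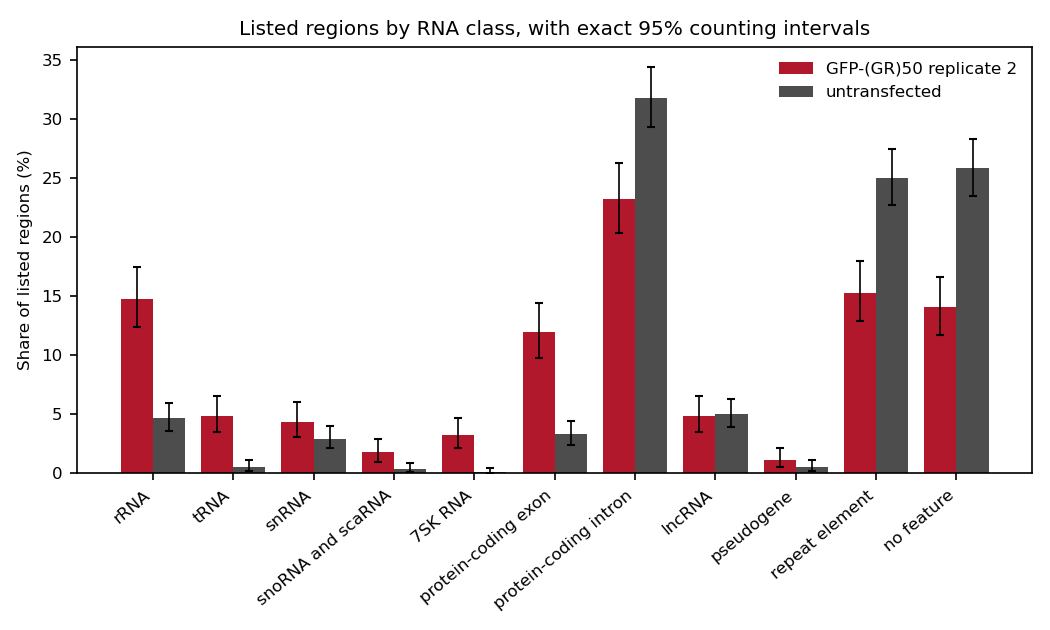
Share of listed regions in each RNA class, in percent, with red bars for GFP-(GR)50 replicate 2, grey bars for untransfected cells and error bars for exact 95% counting intervals. The classes 7SL RNA, Y RNA and other small RNA, with 3 regions or fewer, are not drawn. Exons held 11.9% of regions in GFP-(GR)50 and 3.29% in untransfected cells, while intron, repeat and unannotated classes were higher in untransfected cells.

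Most of the untransfected list was sequence opposite or over repeats. SINEs were annotated on the strand opposite to 214 regions of GFP-(GR)50, 26.6% (interval 23.6 to 29.8), and to 690 of untransfected cells, 51.5% (interval 48.8 to 54.2). On the same strand they were rare in both, at 15 regions (1.86%) in GFP-(GR)50 and 24 (1.79%) in untransfected cells. The opposite-strand difference was present within each class of unstructured sequence. Among introns 111 of 187 regions of GFP-(GR)50 (59.4%) and 302 of 426 of untransfected cells (70.9%) lay opposite a SINE. Among lncRNAs it was 7 of 39 (17.9%) in GFP-(GR)50 and 27 of 67 (40.3%) in untransfected cells, and among regions without a feature 52 of 109 (47.7%) and 215 of 336 (64.0%), in the same order. Opposite-strand LINEs, longer interspersed repeats, had 53 regions (6.58%) in GFP-(GR)50 and 136 (10.2%) in untransfected cells. LTR and DNA elements differed by less than the counting intervals on either strand. Low-complexity sequence, on either strand, went the other way, at 32 regions (3.98%) in GFP-(GR)50 and 24 (1.79%) in untransfected cells. Satellites did so too, at 5 regions in GFP-(GR)50 and 1 in untransfected cells. Intron regions, most of which lay opposite a SINE, had a median width of 48 bp in GFP-(GR)50 and 50 bp in untransfected cells.

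**Figure D4:**
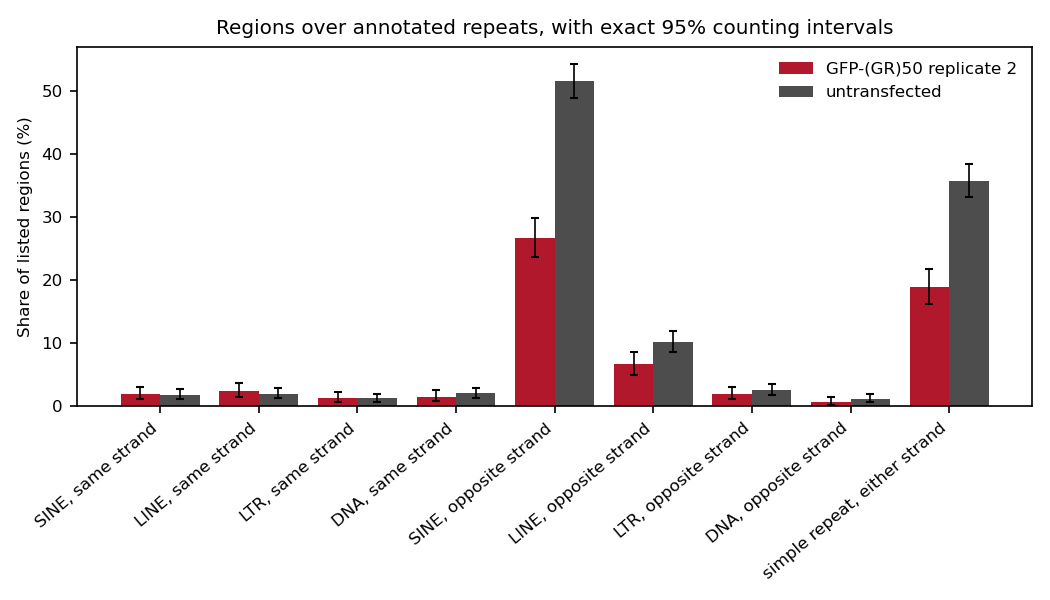
Share of listed regions that overlap an annotated repeat, in percent, by repeat type and strand, with red bars for GFP-(GR)50 replicate 2, grey bars for untransfected cells and error bars for exact 95% counting intervals. The wide gap is at SINEs on the opposite strand, with 26.6% in GFP-(GR)50 and 51.5% in untransfected cells, and at simple repeats.

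Simple repeats, tandem copies of short units, overlapped 152 regions of GFP-(GR)50 (18.9%) and 478 of untransfected cells (35.7%) on either strand. Their annotated strand carries no information. All 110 regions of GFP-(GR)50 and all 313 of untransfected cells with a same-strand simple repeat lie on the plus strand, and none of the 42 and 165 with an opposite-strand one does. The class of repeat elements rests on this: 91 of its 123 regions in GFP-(GR)50 and 274 of 333 in untransfected cells hold a same-strand simple repeat. Outside rRNA a SINE or a simple repeat, on either strand, was annotated at 328 of 682 regions in GFP-(GR)50 (48.1%) and at 1024 of 1265 in untransfected cells (80.9%).

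The nuclear long noncoding RNAs differed among themselves. MALAT1, of nuclear speckles, had 6 regions in each list, with 56.2 reads in GFP-(GR)50 and 49 in untransfected cells. NEAT1, the scaffold of paraspeckles, had 3 regions in each, with 19 reads in GFP-(GR)50 and 50 in untransfected cells. XIST, which coats the inactive X chromosome, had 5 regions with 52 reads in GFP-(GR)50 and 13 regions with 157 reads in untransfected cells. Relative to the reads outside rRNA, the ratio was 1.67 at MALAT1 (interval 1.12 to 2.50), 0.554 at NEAT1 (interval 0.309 to 0.957) and 0.483 at XIST (interval 0.346 to 0.665). The XIST reads of untransfected cells were uneven, since 76 of the 157 lay in 1 region of 744 bp from 73851895 to 73852639. GFP-(GR)50 had 23 and 12 reads in 2 regions that overlap it. Nearly all of these reads are unique.

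Of the 682 regions outside rRNA in GFP-(GR)50, 164 (24.0%) shared 1 bp or more, strand for strand, with a region of untransfected cells, and 168 of 1265 (13.3%) did so in the other direction. No region of GFP-(GR)50 overlapped an untransfected region on the opposite strand without also overlapping one on its own strand. The overlapping pairs were 166, and reads were higher in GFP-(GR)50 in 39 and lower in 126. Taken as shares of the reads outside rRNA, 25 of 166 pairs (15.1%) were past 2-fold higher in GFP-(GR)50 and 17 (10.2%) past 2-fold lower. The 25 held 5 of 6 tRNA pairs, the 5 U3 pairs, which share their reads, RN7SK and 3 of 29 snRNA pairs, and none of these classes had a pair past 2-fold lower. The others of the 25 were 5 repeat-element pairs, 4 without a feature, 1 intron and 1 lncRNA pair. Of the 5 repeat-element pairs, 2 hold the same region of GFP-(GR)50, the unannotated rRNA-repeat stretch. The 61 pairs opposite a SINE had a median ratio of 0.890, with 3 past 2-fold higher and 7 lower. The 20 intron pairs had a median of 0.872, with 1 higher and 3 lower. The pairs with the most reads in GFP-(GR)50 were the 2 of the unannotated rRNA-repeat stretch, RN7SK, tRNA-Arg-CGA and an unnamed place on chromosome 2. That place, from 32916553 to 32916637 and opposite a simple repeat, had 46.3 reads in GFP-(GR)50 and 11 in untransfected cells.

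**Figure D5:**
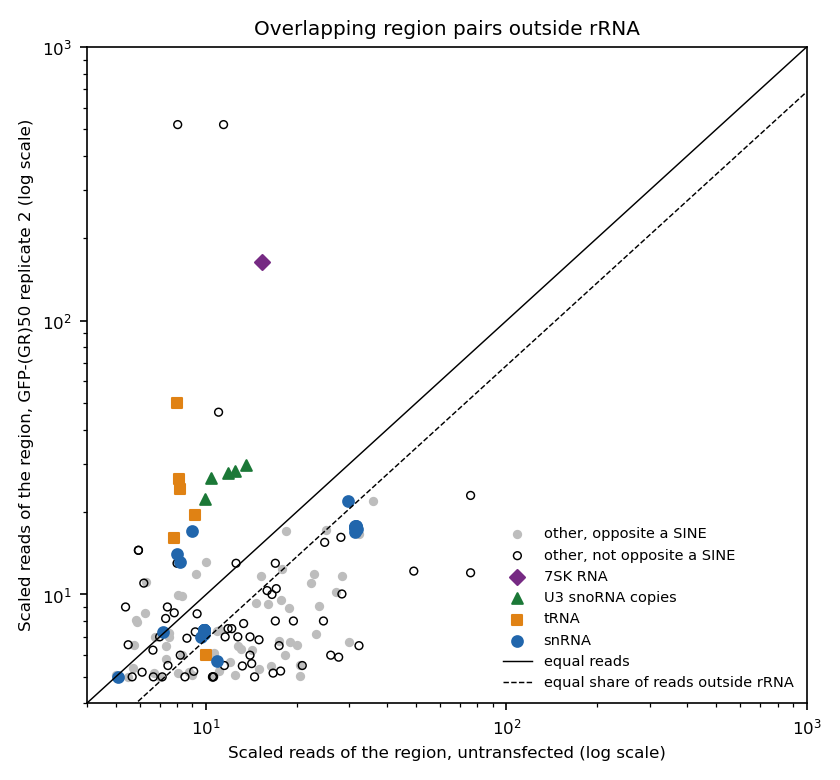
Scaled reads of 166 overlapping region pairs outside rRNA, with untransfected cells on the horizontal and GFP-(GR)50 replicate 2 on the vertical axis, both on a log scale. The solid line marks equal reads and the dashed line equal shares of reads outside rRNA. RN7SK, 5 U3 copies and 5 of 6 tRNA pairs lie above both lines, and most pairs opposite a SINE lie near or below the dashed line.

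By name, 103 of 452 names of GFP-(GR)50 (22.8%) and 103 of 702 of untransfected cells (14.7%) were shared. The share of reads was past 2-fold higher in GFP-(GR)50 for 19 of them (18.4%) and past 2-fold lower for 7 (6.80%), with a median ratio of 1.01. The interval of the ratio lay above 1 for 14 names and below 1 for 4. The 14 include the U3 genes and the 4 include U1, whose copies share reads. As shares of all listed reads, rRNA included, no name was past 2-fold higher and 99 were past 2-fold lower, so the direction depends on leaving rRNA out. Outside 7SK, U3 and tRNA, TTC28 was among the names with a high ratio, 3.31 (interval 1.20 to 9.06). TTC28 had 15.2 and 6.69 reads opposite a SINE, GFP-(GR)50 given first. Among the 8 lowest ratios were XIST, given above, and 7 other names. SRGAP2B had 12.2 reads in GFP-(GR)50 and 49.2 in untransfected cells, GOLM1 5.02 and 20.5, HAS3 5.54 and 20.6, TIAM1 5.59 and 19.2, and EOMES 8 and 24.6, GFP-(GR)50 given first. AC022826.2 had 9.25 and 27.0 and AC090809.1, a long noncoding RNA, 10.04 and 28.3, in the same order. Of these 7, only the interval of SRGAP2B, at 0.361 (0.173 to 0.681), lay wholly below 1.

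Names listed in 1 library had other kinds of sequence. Several of those with the most reads in GFP-(GR)50, beside the tRNA and 7SK names above, were single short stretches. LINC01170, a long noncoding RNA, had 225 reads over 41 bp, GALNT1 142 over 24 bp of an intron and SUSD1 79 over 42 bp of an intron. PRICKLE2 had 42.5 reads over 37 bp, and a region of 26 bp annotated to both AL358613.3 and CYP26C1 had 42.5. At least 41 of the reads at each of these are unique. Besides GFP-(GR)50, LINC01170 was listed in GFP-(GP)10, with 14 reads, and the other 5 names in no library. MIR663AHG had 69.3 reads in 4 regions of 72 to 333 bp, and GFP-(GR)50 replicate 1 listed it too, with 12.2 reads. In untransfected cells the names with the most reads were POU2F1 with 35.7 reads, ADK with 27.8 and the overlapping genes ANKHD1 and ANKHD1-EIF4EBP3 with 26.3, all in introns or repeats. OSBPL10 with 22.1, ITGA2 with 21.8, SPEN with 21.5, IGF1R with 20.8, NRG1 with 18.6 and CSTF3 with 18.3 followed. No region at ADK, OSBPL10, ITGA2 or CSTF3 was wider than 57 bp.

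The other 3 libraries of the study held few of these regions. Of the 518 regions of GFP-(GR)50 outside rRNA without an overlap in untransfected cells, 21 (4.05%) overlapped GFP-(GR)50 replicate 1, 29 overlapped GFP-(GP)10 and 58 (11.2%) overlapped GFP. These lists are shorter, with 67, 263 and 389 regions outside rRNA. Of the 349 names in GFP-(GR)50 and not in untransfected cells, 18 were in GFP-(GR)50 replicate 1, and 11 of those were in neither GFP-(GP)10 nor GFP. Of the 1097 regions of untransfected cells outside rRNA without an overlap in GFP-(GR)50, 25 (2.28%) overlapped GFP-(GP)10, 2 (0.182%) overlapped GFP-(GR)50 replicate 1 and 9 (0.820%) overlapped GFP.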

How the data were processed

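CLIP-Seq regions of GFP-(GR)50 replicate 2 and untransfected HEK-293 cells were compared, 1 library each. The submitters' processing notes name featureCounts 2.0.2, bedtools 2.30.0, Novoalign 4.03.03 and UMI-tools 1.1.2, with builds GRCh38.p13 and hg38, and no region caller. Per the file headers, unique reads are a count (in GFP-(GR)50 replicate 2, 6 values are not whole, so this column was taken as an expected count), and the scaled column, deposited by the authors, adds multimapping reads as an expected count (estimated count). Neither is normalised for depth, and total depths were not used here.

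Each region got 1 of 14 classes from the deposited annotation. Contig regions without annotation that match the width (within 5 bp) and reads (within 5% or 2 reads) of an rRNA region of at least 100 bp were counted as rRNA, 4 in GFP-(GR)50 and 12 in untransfected cells. Regions overlapped if they shared 1 bp or more, strand for strand. Ratios compare shares of reads outside rRNA, with exact binomial 95% intervals on rounded reads. Starts in the files are 1 below RefSeq starts at SNORD3A, so positions were set against RefSeq with starts counted from 0. The overlap code was tested on simulated data with Python 3.11.15, numpy 2.4.6 and scipy 1.17.1. A plain ratio of simulated counts was set against the 2-fold limit. The code of the share ratios and their intervals was not tested this way.

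The text names the 12 names with the most reads in each list alone, the 8 highest and 8 lowest ratios in both, the 5 names with the most regions, up to 5 members of each of 15 gene lists, the 5 pairs with the most reads, 5 tRNA names and the rRNA genes; others are said to be chosen after their values were seen. Members, lists and rules were chosen with earlier results of these data known. Alternatives were other minimum reads, the top 500 regions, unique reads, no rRNA, no regions opposite a repeat, other overlaps, other read shares and 3-fold. Some named items are not reported here.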

Additional observations from a re-analysis of the deposited data

How the results depend on the processing

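Of 67 alternatives run, 38 moved a value by less than its counting interval or a count by less than 1.5 times, and 29 moved it by more. No difference whose interval lay on 1 side of 0 changed sign. The snRNA and lncRNA differences, whose intervals included 0, did: snRNA as given below, and lncRNA from -0.16 to between 0.033 and 1.2 under each alternative. The balance of names, 19 higher and 7 lower, turned under the top 500 and under all listed reads. With regions of at least 10 reads, the exon difference was 2.75 percentage points, the same-strand repeat difference -24.9, the share of regions overlapped 31.1% in GFP-(GR)50 and 36.6% in untransfected cells, the names past 2-fold higher 7, and the ratio of median widths 2.07. With the 500 regions with the most reads of each list, the exon difference was 6.20, the intron difference -4.40, the same-strand repeat difference -14.8, the overlap in untransfected cells 34.4%, the names higher 10 and lower 15, and the width ratio 1.15. With at least 5 unique reads, the tRNA difference was 2.60, the overlap 19.8% in GFP-(GR)50 and 11.4% in untransfected cells, and the names lower 3. Without regions opposite a repeat, the intron difference was -3.36, the snRNA difference -2.80, the tRNA difference 6.12, the same-strand repeat difference -30.1 and the width ratio 1.41. Without rRNA the overlap in untransfected cells was 13.04%. As shares of all listed reads 0 names were past 2-fold higher and 99 lower, by unique reads 2 were lower, and past 3-fold 11 were higher and 0 lower. Without the unannotated rRNA-repeat stretch, an alternative chosen after seeing the data, 4 names were lower. The causes were not tested. The opposite-strand SINE and lncRNA differences stayed within their intervals under each alternative run. No paired analysis was possible because each side has 1 library, and for the same reason no library could be left out. The minimum of 5 reads limits what either list can show.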

Other observations

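Regions outside rRNA of at most 60 bp with at least 30 unique reads numbered 9 in GFP-(GR)50 and 4 in untransfected cells, and these limits were chosen after the values were seen. Besides the names given above, GFP-(GR)50 listed 38 reads over 41 bp at an unnamed place on chromosome 4 (from 40516148 to 40516189), 33 reads over 35 bp at another on the same chromosome (from 67302714 to 67302749), and 34 reads over 32 bp at the long noncoding RNA AC010280.1. All reads at these 3 places are unique, and untransfected cells had no overlapping region. Of the 9, LINC01170, SUSD1, AC010280.1 and the second of the places on chromosome 4 lie opposite low-complexity sequence. GALNT1 lies opposite a LINE, and the others have no repeat annotated on the opposite strand. In untransfected cells the 4 included 42 reads over 39 bp at an unnamed place on chromosome 15 (from 80151850 to 80151889), opposite a simple repeat and with no overlap in GFP-(GR)50, and 36.0 reads over 57 bp at OXSR1, opposite a SINE, which GFP-(GR)50 overlapped.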
